A study of Mus musculus with 2 samples.

Results

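The genes of the mouse major histocompatibility complex (MHC), called H2, were followed in total RNA from the newborn adrenal gland. The members were the 45 annotated genes whose symbol begins with H2-, together with B2m, Cd74, Ciita, Nlrc5, Tap1, Tap2 and Tapbp, named for their work with MHC molecules. This gave 52 members of 55536 annotated genes. The samples were glands of 4-day-old B6CASTF1/J males, first-generation offspring of a cross between C57BL/6J, a laboratory strain, and CAST/EiJ, a strain derived from wild mice. They formed 1 group of 2 biological replicates, with no treatment and no second condition. Both libraries carried the same donor label and a description naming the same male, while the sample characteristics named different males.

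MHC class I molecules sit on nearly all nucleated cells and show peptides made inside the cell to CD8 T cells. A class I heavy chain, such as H2-K1 or H2-D1, pairs with beta-2 microglobulin (B2m) and receives its peptide from the transporter Tap1-Tap2 with the help of tapasin (Tapbp). Class Ib heavy chains of the Q, T and M regions have the same fold but a narrower distribution or more special tasks. Class II molecules, each an alpha and a beta chain, are made mainly by B cells, dendritic cells and some macrophages, and show peptides from outside the cell to CD4 T cells. Cd74, the invariant chain, fills the class II groove until H2-DM exchanges it for peptide. Nlrc5 and Ciita are the co-activators of the class I and class II promoters.

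The 45 genes with the prefix spanned chr17:33974659-37483552 (mm10), and with Tap1, Tap2 and Tapbp 48 members lay on that chromosome. Replicate 1 held 32231301 gene counts and replicate 2 held 30292851. A gene with no count could have made up at most 0.0931 and 0.0990 CPM (counts relative to all gene counts), the share given by 3 counts, and such limits cover counting error only. Steroid and chromaffin cell markers were abundant in both libraries, with summed levels of 5127 and 4104 TPM over 6 adrenal cortex genes and of 2121 and 1915 TPM over 6 chromaffin genes. TPM is a transcript level corrected for length and scaled to one fixed total per library. The libraries stood apart in liver RNA: all 10 hepatocyte markers were higher in replicate 2, with summed levels of 224 TPM (replicate 1) and 5790 TPM (replicate 2). For that reason each member is given library by library below, and a member that changes place without replicate 2 is named.

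Known control sequences of these genes lie just before the start of transcription. They are shown here because some of the members share them, and because genes with nearly the same letters differed widely in level. RefSeq promoters (GRCm38.p6, 250 bases before to 50 bases after the start, the first start listed for each gene) were matched for 35 of the 52 members. Both strands were searched for a kappaB site (GGGGATTCC), a short form of the interferon-stimulated response element (TTTCNNTTC), an X1 box (AGCAACNGA) and a Y box (CTGATTGG). In the members, matches of different motifs did not overlap. The stretch of the class I promoters with the kappaB and interferon letters in capitals reads, 5′ to 3′ on the gene's strand:
H2-K1: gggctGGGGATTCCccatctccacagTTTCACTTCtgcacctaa
H2-D1: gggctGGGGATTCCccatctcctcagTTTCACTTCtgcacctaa
H2-Q6: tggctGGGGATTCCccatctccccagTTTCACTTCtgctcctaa
H2-Q7: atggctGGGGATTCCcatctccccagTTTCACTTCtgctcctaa
H2-Q4: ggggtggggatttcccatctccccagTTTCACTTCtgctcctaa
H2-Q10: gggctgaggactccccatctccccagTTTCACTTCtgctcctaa
H2-M3: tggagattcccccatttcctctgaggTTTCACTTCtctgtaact

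These windows lie at chr17:34000420-34000463 for H2-K1 (minus strand), chr17:35262918-35262961 for H2-D1 and chr17:35469908-35469951 for H2-Q10 (both plus strand). The kappaB letters stood in 70 of 27025 promoters (0.259%) and in 4 of 23 class I promoters, those of H2-K1, H2-D1, H2-Q6 and H2-Q7. The interferon letters stood in 7.56% of all promoters and in 8 of the 23, those shown above and H2-M2, which had 1 and 2 counts. The Y box stood in 4.31% of all promoters, in 14 of the 23 class I promoters, each time on the opposite strand, and in 4 of 8 class II promoters, each time on the gene's strand. All 3 of kappaB, interferon and Y letters occurred together in 4 promoters of the whole table, and these were the same 4 class I genes. Of the 8 class I genes with the interferon letters, 5 were detected, and none had 0 counts in both libraries. Of the 14 with the Y box, 4 were detected and 7 had 0 counts in both libraries. For reference, 8 of the 23 class I genes with a promoter were detected and 8 had 0 counts. The searched letters are known control sequences of these genes, so the motif shares here and below are no independent test. Only exact letters were counted, so the near form ggggatttcc of H2-Q4 was not. A match is a match of letters, and nothing here shows a factor bound to it.

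Class II promoters are known for an X and a Y box. The X1 letters were found in 2 and the Y letters in 4 of 8 class II promoters. The 4 with the Y letters are shown, with the searched letters in capitals where they were found:
H2-Eb1: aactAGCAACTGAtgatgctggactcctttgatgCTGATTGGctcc
H2-Eb2: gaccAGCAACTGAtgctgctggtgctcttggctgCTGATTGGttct
H2-Aa: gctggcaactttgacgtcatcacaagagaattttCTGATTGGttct
H2-Oa: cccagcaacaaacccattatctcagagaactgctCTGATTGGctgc

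The window of H2-Eb1 lies at chr17:34305771-34305816 and that of H2-Eb2 at chr17:34325538-34325583, both on the plus strand. X1 letters stood in 1.37% of all promoters and, with the Y box, in 24 of them, of which 2 were members, H2-Eb1 and H2-Eb2. These neighbours shared both boxes and the spacing, yet H2-Eb1 had 81 and 130 counts and H2-Eb2 had 1 and 0.

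Detection was set at a mean of 1 TPM, which 20 of the 52 members reached beside 27.2% of all annotated genes. A further 12 members had 0 counts in both libraries, beside 26629 of the 55536 annotated genes. Those 12 were 8 class Ib genes of the M region, 2 class I pseudogenes and both class II pseudogenes. Detected were both classical class I genes, 2 of 7 Q region, 3 of 6 T region and 1 of 12 M region genes, 1 of 5 class I pseudogenes, all 4 of B2m, Tap1, Tap2 and Tapbp, 4 of 5 class II chains, 1 of 5 class II accessory genes, Cd74 and H2-Ke6. Neither co-activator reached the level.

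**Figure D1:**
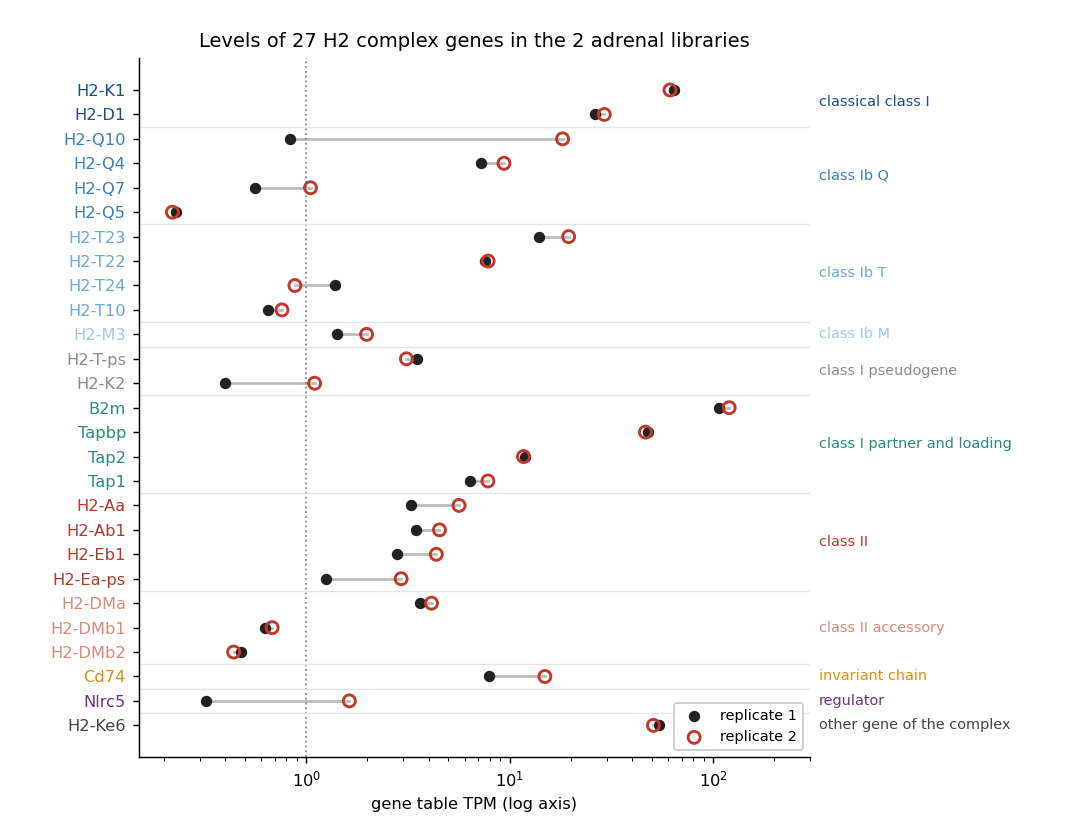
Gene table TPM (log axis) of the 27 members that reached a mean of 1 TPM in either table, by class, with filled points for replicate 1, open circles for replicate 2, a grey line joining the 2 libraries and a dotted line at 1 TPM. B2m, H2-K1, H2-Ke6 and Tapbp are the highest genes, and H2-Q10 moves from 0.830 to 18.2 TPM.

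The light chain B2m (chr2:122147686-122153083) was the highest member, at 107 TPM in replicate 1 and 120 TPM in replicate 2, or 113 ± 9.33 TPM (SD, n = 2, as for all means below). It ranked 466 among 22028 protein-coding genes. H2-K1 (chr17:33996017-34000347, minus strand), a classical heavy chain, stood at 64.0 and 61.4 TPM and ranked 978. H2-D1 (chr17:35262730-35267499, plus strand), the other classical heavy chain, stood at 26.3 and 29.2 TPM and ranked 2836. The order B2m, H2-K1, H2-D1 held in both libraries with no overlap between genes. Over all transcripts B2m was 1.18 and 1.33 times the sum of the classical heavy chains. Its lead over that sum was larger by protein-coding transcripts alone. There B2m had 107 and 120 TPM, beside 30.1 and 27.7 TPM for H2-K1 and 25.2 and 27.2 TPM for H2-D1.

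The lead of H2-K1 over H2-D1 depended on what was counted. By TPM it was 2.43-fold in replicate 1 and 2.10-fold in replicate 2, but by counts it was 1.16-fold and 1.01-fold. A 457-base H2-K1 transcript annotated as a retained intron took 46.1% and 46.5% of the gene's TPM while holding 18.7% and 19.1% of its counts. Over protein-coding transcripts alone H2-K1 had 30.1 and 27.7 TPM and H2-D1 had 25.2 and 27.2 TPM, a ratio of 1.19 and 1.02. In the alignment-free table the ratio was 1.44 and 1.33 over protein-coding transcripts and 2.16 and 1.97 over all. The lead of H2-K1 was thus smaller by counts, and by coding transcripts in either table, than by gene TPM.

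Between the libraries H2-K1 had 1869 and 1599 counts, a log2 ratio of -0.17 (replicate 2 over replicate 1), and passed the exact binomial test against the TMM library sizes with a Benjamini-Hochberg adjusted p of 0.00359, well under 2-fold. H2-D1 had 1608 and 1577 counts, a log2 ratio of 0.03 and an adjusted p of 0.718 in the same exact test. This test compares 2 libraries by counting error, and not conditions. A call required an adjusted p under 0.05 over all 18160 genes kept and more than 2-fold.

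The loading genes had similar levels in both libraries. Tapbp (chr17:33915899-33929292), which bridges the heavy chain to the transporter, had 47.8 and 46.5 TPM. Tap2 had 11.9 and 11.7 TPM and Tap1 had 6.37 and 7.82 TPM, the partner subunits of the peptide transporter. Tapbp stood 7.50-fold and 5.95-fold above Tap1 by gene TPM. A 367-base Tapbp transcript took 32.3% and 27.4% of that gene's TPM with 4.92% and 3.97% of its counts. It had no TPM in the alignment-free table. By counts the lead was smaller, with 2788 and 2570 for Tapbp against 595 and 646 for Tap1. None of B2m, Tapbp, Tap1 and Tap2 passed the adjusted threshold in the library comparison with TMM sizes, with log2 ratios from -0.06 to 0.18. With spike-in or total count scaling B2m (adjusted p of 0.0229 and 0.0216 by the exact test) and Tap1 (0.0396 and 0.0386) did pass it, at log2 ratios of 0.11 and 0.21.

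Transcript types differed inside this group. A retained intron transcript took 73.8% and 84.3% of Tap2 TPM in the alignment-based table and 48.5% and 65.7% in the alignment-free one. Protein-coding Tap2 came to 3.11 and 1.83 TPM in the former and 11.7 and 6.61 TPM in the latter, lower in replicate 2 in each. Tapbp was led by a 2589-base protein-coding transcript in the alignment-based table (46.5% and 51.1% of TPM) and by a 2898-base one in the alignment-free table (61.8% and 71.4%). Tapbp also overlaps Zbtb22 on the same strand, a gene at 13.7 ± 2.17 TPM. Across the 27 members at 1 TPM in either table, 22 had the same leading transcript in both replicates within each table, and 18 had the same one in both tables.

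**Figure D2:**
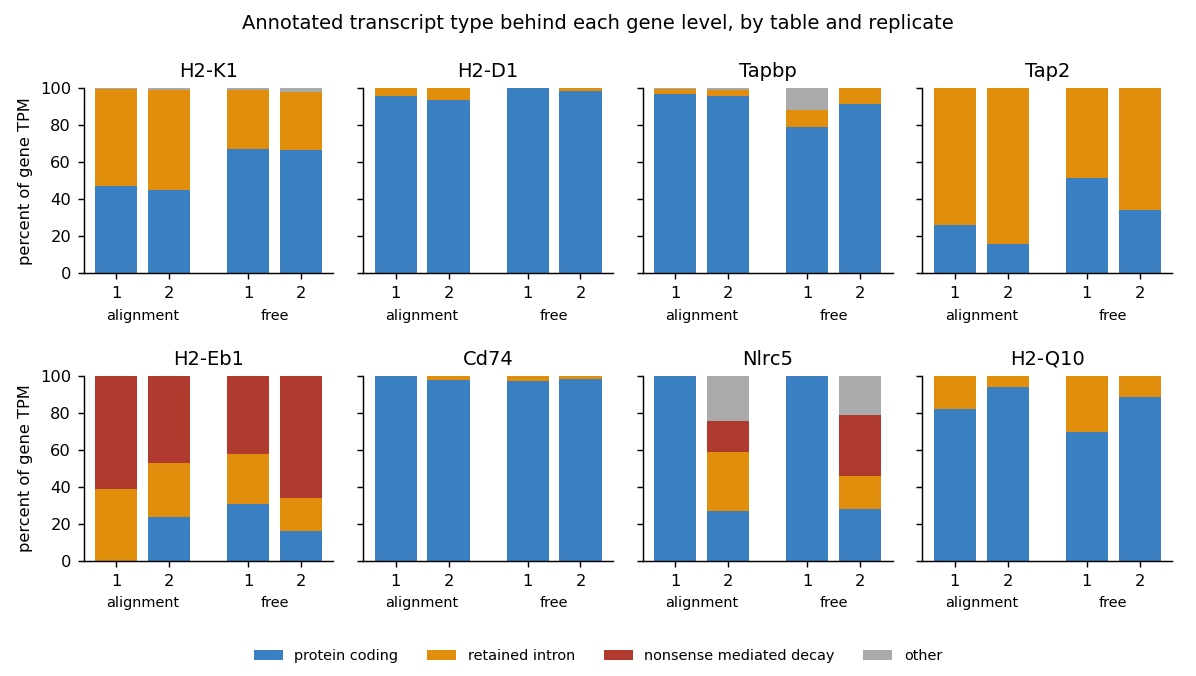
Percent of each gene's TPM on transcripts of each annotated type, for replicates 1 and 2 in the alignment-based and the alignment-free tables. H2-D1 and Cd74 were nearly all protein coding, H2-K1, Tap2 and H2-Eb1 were not, and Nlrc5 went from 100% protein coding in replicate 1 to 27.0% in replicate 2.

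The wider loading machinery, 11 genes with the 4 members included, had 0 genes past 2-fold, beside 3.99% of all genes tested. Of the list, 4 passed the adjusted threshold lower in replicate 2, beside 17.6%. These were Calr, Pdia3, Hspa5 and Uggt1, all folding factors of the endoplasmic reticulum. The list's median log2 ratio was -0.03, beside 0.00 over all genes kept. Calr stood highest at 174 ± 5.28 TPM, followed by Hspa5 at 167 ± 10.4 TPM, Canx at 150 ± 10.7 TPM and Pdia3 at 144 ± 2.15 TPM. Among 8 proteasome genes, 3 interferon-inducible subunits, Psmb8, Psmb9 and Psmb10, stood at 8.64 ± 1.53, 5.29 ± 0.0141 and 29.6 ± 0.594 TPM. Their constitutive counterparts Psmb5, Psmb6 and Psmb7 stood at 82.7 ± 6.65, 108 ± 2.82 and 99.1 ± 1.17 TPM, above Psmb8, Psmb9 and Psmb10 in both libraries. Psme2 at 133 ± 9.82 TPM and Psme1 at 117 ± 9.36 TPM, outside these pairs, were the highest of the list by mean. No proteasome gene was past 2-fold. The adjusted threshold was passed by 3 genes lower in replicate 2, beside 17.6% of all genes tested, with a list median of -0.08.

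Among class Ib genes H2-Q10 was the one that differed most between the libraries. It encodes a secreted class I molecule known as a product of the liver. It had 0.830 TPM in replicate 1 against 18.2 TPM in replicate 2, from 53.1 and 840 counts. The log2 ratio was 4.03, a 16.4-fold difference (95% interval 12.5 to 22.2), with an adjusted p of 5.26e-188 in the exact binomial test. In alignment-free counts the log2 ratio was 3.17. Without replicate 2 the gene was below the detection level.

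The hepatocyte list moved with H2-Q10: 10 of 10 genes were called higher in replicate 2, beside 3.38% of all genes tested. They ranged from 4.51-fold for Hnf4a to 33.1-fold for Apoh, with a median log2 ratio of 4.71 and medians of 13.6 and 380 TPM. None of the 10 was at 0 in replicate 1, where Alb stood at 76.3 TPM against 2319 TPM in replicate 2. Per 100 Alb counts there were 1.09 counts of H2-Q10 in replicate 1 and 0.627 in replicate 2. Of the other 9 hepatocyte genes, 6 also had fewer counts per 100 Alb counts in replicate 2 and 3 had more. The part of liver RNA in the H2-Q10 difference was not tested. H2-Q10 made up 0.659% of summed class I heavy chain TPM in replicate 1 and 11.9% in replicate 2, where the share of H2-K1 was 50.8% and 40.3%. In bulk tissue a change in the number of cells of a type and a change in RNA per cell cannot be told apart.

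**Figure D3:**
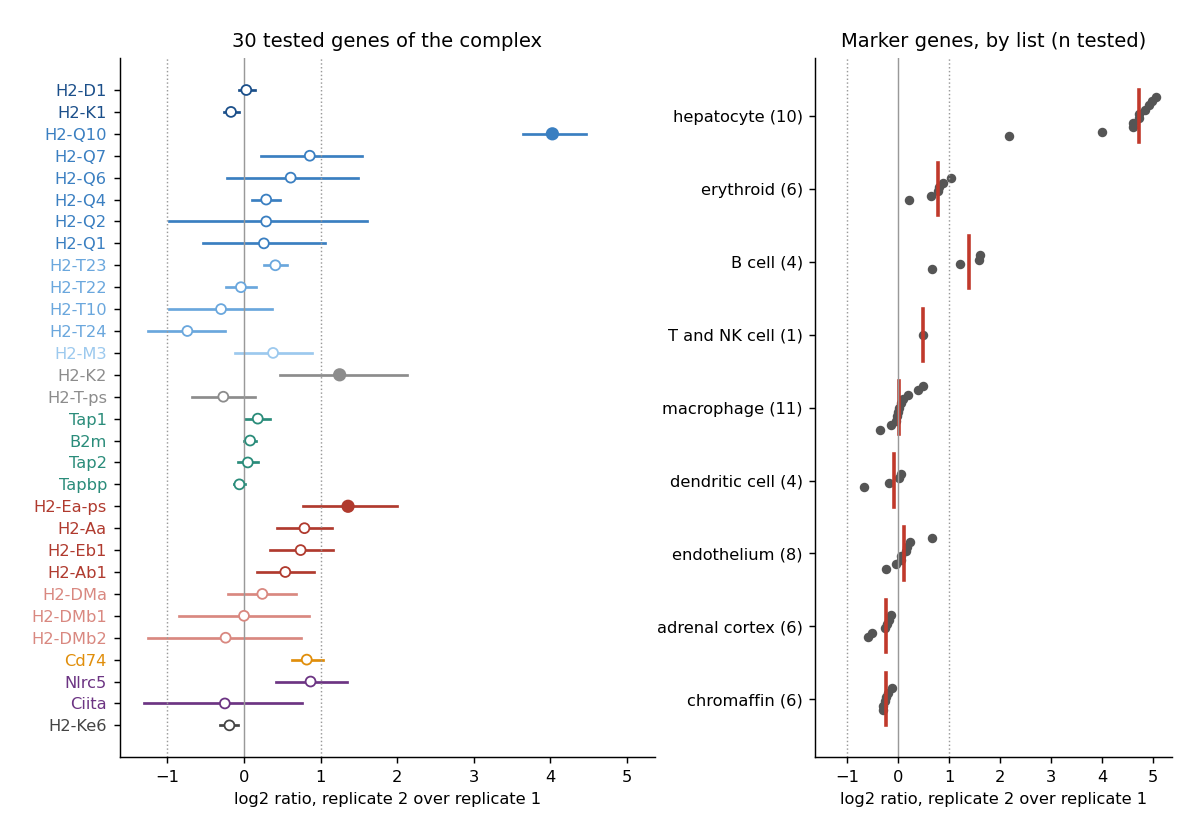
Log2 ratio of replicate 2 over replicate 1 for the 30 tested members (left, bars are 95% intervals from counting error, filled points were called) and for tested marker genes by list (right, red bars are list medians), with dotted lines at 2-fold. H2-Q10 lies at 4.03 near the hepatocyte genes, and the class II chains and Cd74 lie between 0.54 and 1.36.

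The other detected class Ib genes were closer. H2-T23, the Qa-1 molecule that presents leader peptides to NK cell receptors, had 14.0 and 19.5 TPM, with a log2 ratio of 0.41 and an adjusted p of 5.03e-07 by the exact test. H2-Q4 had 7.26 and 9.38 TPM, a log2 ratio of 0.29 and an adjusted p of 0.00730 by the exact test. H2-T22, a ligand of some gamma-delta T cells, had 7.56 and 7.84 TPM. H2-M3, which presents formylated peptides, had 1.42 and 1.98 TPM. H2-T24 was the reverse, with 1.39 and 0.880 TPM, a log2 ratio of -0.74 and an adjusted p of 0.0101 by the exact test. H2-T23, H2-T22 and H2-T24 lie across the antisense gene A930015D03Rik (1.25 ± 0.297 TPM), with the strand setting of the counting not given in the sources used here.

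H2-Q7, which with H2-Q6 gives rise to Qa-2, had 0.560 and 1.05 TPM from 33.3 and 58.5 counts, with a log2 ratio of 0.86 and an adjusted p of 0.0225 by the exact test. In alignment-free counts its log2 ratio was 0.35 and it no longer passed (adjusted p of 0.141 by the exact test). H2-Q6 had 0.570 and 0.680 TPM, H2-T10 had 0.650 and 0.760 TPM and H2-Q5 had 0.230 and 0.220 TPM. Among the pseudogenes H2-T-ps had 3.52 and 3.11 TPM. H2-K2, a pseudogene beside H2-K1, had 19.3 and 44.3 counts, and was called higher in replicate 2 at a log2 ratio of 1.25 and an adjusted p of 0.00563 by the exact test. The remaining class Ib genes of the Q and T regions, H2-Q1, H2-Q2, H2-Bl and H2-T3, had mean levels from 0.020 to 0.50 TPM. In the M region H2-M5, H2-M2 and H2-M9 had at most 9 counts in a library. H2-Ke6, which carries the prefix for its place and is a hydroxysteroid dehydrogenase gene (also called Hsd17b8) and no MHC molecule, had 54.0 and 50.9 TPM. It overlaps Gm20427 on the same strand, which holds 60.4% of the 100-base windows of its transcript with the most counts.

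Class II chains were low but present. H2-Aa (chr17:34282744-34287823, minus strand) had 3.27 and 5.64 TPM, and its partner H2-Ab1 (chr17:34257689-34269419, plus strand) had 3.48 and 4.52 TPM. H2-Eb1 had 2.81 and 4.36 TPM, and its partner H2-Ea-ps had 1.25 and 2.93 TPM. Protein-coding H2-Eb1 alone had 0 and 1.03 TPM in the alignment-based table and 1.40 and 1.39 TPM in the alignment-free one. In the alignment-based table a transcript annotated for nonsense-mediated decay took 61.4% and 47.1% of H2-Eb1 TPM. H2-Ea is annotated as a polymorphic pseudogene because C57BL/6 mice lack a working copy. Which parental allele gave its reads was not tested. Over all transcripts each of the 4 chains was higher in replicate 2, and their summed level was 10.8 and 17.4 TPM. On the same measure classical class I stood above them by 8.35-fold in replicate 1 and 5.19-fold in replicate 2.

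All 4 tested class II chains passed the adjusted threshold higher in replicate 2, beside 15.9% of all genes tested, and H2-Ea-ps alone of them was past 2-fold, beside 3.38%. It had 33 and 82 counts, a log2 ratio of 1.36 and an adjusted p of 1.61e-05 by the exact binomial test. The log2 ratio was 0.79 for H2-Aa (108 and 179 counts, adjusted p of 5.16e-05), 0.74 for H2-Eb1 (81 and 130 counts, adjusted p of 0.00157) and 0.54 for H2-Ab1 (105 and 147 counts, adjusted p of 0.0136), all by the exact test. Cd74 (chr18:60803848-60812652), on another chromosome, had 7.95 and 14.9 TPM from 307 and 522 counts, with a log2 ratio of 0.82 and an adjusted p of 1.59e-14 by the exact test. Cd74 thus stood at 0.735 and 0.856 of the summed class II chains.

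None of the peptide exchange genes passed the threshold, and the difference between them and the chains was not tested. H2-DMa had 3.63 and 4.13 TPM from 84 and 95 counts and an adjusted p of 0.477 by the exact test, but it overlaps Brd2 on the opposite strand, a gene at 77.1 ± 3.72 TPM. H2-DMb1 had 0.630 and 0.680 TPM, and H2-DMb2 had 0.480 and 0.440 TPM. H2-Oa and H2-Ob, which restrain H2-DM mainly in B cells, had at most 13 counts in a library. The 2 class II pseudogenes H2-Pa and H2-Pb had 0 counts.

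Markers of the cells that make class II are given beside these values. In the B cell list all 6 genes had more counts in replicate 2. Of 4 tested, 3 were called higher (Cd79a, Cd79b and Pax5), beside 3.38% of all genes tested. The list median log2 ratio was 1.40. By TPM Cd79a, Cd79b, Ms4a1 and Cd22 were higher in replicate 2 as well. Pax5 did not differ by TPM, at 0.360 in each library, and Fcer2a, with 2 and 3 counts, was lower in replicate 2. The summed B cell level was 1.74 and 4.16 TPM, and none of its genes was at 0. Of 11 macrophage genes none was called. The adjusted threshold was passed by 3 higher, beside 15.9% of all genes tested, and by 2 lower, beside 17.6%. The median log2 ratio was 0.01 and the summed macrophage level was 111 and 127 TPM. The highest were Lyz2 at 22.8 ± 5.25, C1qb at 20.2 ± 1.44, C1qa at 19.0 ± 0.933 and C1qc at 16.9 ± 0.686 TPM. The dendritic cell list had a median of -0.09 over 4 tested genes. Its summed level of 10.3 and 11.6 TPM was mostly Zbtb46, a gene that endothelium also expresses, with Cd209a at 0 in replicate 1. T and NK cell genes summed to 0.640 and 1.36 TPM, with 1 gene tested and not past the threshold. The part of these cells in the class II difference was not tested.

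Among 11 class II processing genes, with Cd74 included, 0 were past 2-fold. Past the adjusted threshold 3 were higher (Cd74, Ctsl and March1), beside 15.9% of all genes tested. Lower were 2 (Ctsd and Lgmn), beside 17.6%, and the median log2 ratio was 0.02. March1, a ligase that removes class II from the surface, had 47 and 87 counts. The highest were the lysosomal proteases Ctsb at 207 ± 2.78 and Ctsd at 204 ± 16.3 TPM, the tetraspanin Cd63 at 107 ± 0.339 and Ctsl at 86.7 ± 15.8 TPM. Blood genes also moved, with 5 of 6 erythroid genes past the adjusted threshold higher and Slc4a1 called, at a median log2 ratio of 0.79. Endothelial genes had 4 higher and 1 lower of 8 past the threshold and a median of 0.11. All 6 cortex and all 6 chromaffin genes were past it lower, each list at a median of -0.24. For the erythroid, endothelial, cortex and chromaffin counts the shares of all genes tested were 15.9% higher and 17.6% lower. For calls higher the share was 3.38%.

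The co-activators were scarce. Ciita had 20 and 16 counts, or 0.130 TPM in each library, and it overlaps Dexi (7.54 ± 0.262 TPM) on the opposite strand. Nlrc5 had 0.320 and 1.63 TPM, a 5.09-fold difference in TPM, yet 63 and 111 counts, a 1.83-fold difference (log2 ratio 0.87, adjusted p of 0.000673 by the exact test) that was under the 2-fold limit. Its counts lay on long protein-coding transcripts in replicate 1 and also on short ones in replicate 2, where a 557-base processed transcript took 24.4% of TPM with 4.88% of the counts. Protein-coding Nlrc5 alone had 0.320 and 0.440 TPM, a smaller gap than that of all its transcripts together. The DNA-binding partners were more abundant: Rfx5, Rfxap and Rfxank stood at 12.7 ± 0.827, 12.1 ± 1.87 and 6.34 ± 0.495 TPM. Over the 15 regulators, 1 gene (Nlrc5) was past the adjusted threshold higher, beside 15.9% of all genes tested, and 6 lower, beside 17.6%. None was past 2-fold, and the median log2 ratio was -0.16. The highest of them were Nfkb1 at 26.5 ± 0.0849, Rela at 24.8 ± 0.495, Nfyc at 23.3 ± 1.28 and Irf2 at 21.7 ± 2.51 TPM.

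Counted over the complex, 30 members could be tested. Of these 3 were called higher in replicate 2 (H2-Q10, H2-Ea-ps and H2-K2), beside 3.38% of all genes tested, and 0 were called lower, beside 0.606%. By the adjusted threshold alone 11 were higher, beside 15.9% of all genes, and 3 were lower (H2-K1, H2-T24 and H2-Ke6), beside 17.6%. The members' median log2 ratio was 0.25 (range -0.74 to 4.03), against 0.00 for all genes kept, whose median absolute log2 ratio was 0.17. Leaving out a library leaves no comparison, so these calls have no replicate check.

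Several class I genes are near copies, which bears on how reads are divided among them. The first 60 coding bases of exon 2, which begins the peptide-binding alpha-1 domain, show how few letters separate them, with capitals where a gene differs from H2-K1 in the mm10 reference transcripts:
H2-K1: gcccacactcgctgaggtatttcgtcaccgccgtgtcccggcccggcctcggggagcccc
H2-D1: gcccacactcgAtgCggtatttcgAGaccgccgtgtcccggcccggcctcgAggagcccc
H2-Q6: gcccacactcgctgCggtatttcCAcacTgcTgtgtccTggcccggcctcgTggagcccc
H2-Q7: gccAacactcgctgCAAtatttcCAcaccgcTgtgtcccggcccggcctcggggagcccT
H2-Q10: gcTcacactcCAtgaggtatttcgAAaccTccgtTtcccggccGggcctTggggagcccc
H2-T23: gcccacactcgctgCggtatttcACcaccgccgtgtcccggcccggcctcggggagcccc

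The H2-K1 stretch lies at chr17:33999944-34000003 and the H2-D1 stretch at chr17:35263379-35263438. Over the aligned coding sequence H2-K1 and H2-D1 were 91.5% identical, with 92 differing bases of 1077 and a longest shared stretch of 91 bases. H2-Q6 and H2-Q7 were 94.2% identical and shared a stretch of 265 bases. H2-K1 and H2-Q10 were 87.8% identical, and H2-K1 and H2-T23 82.7%. H2-T22 and H2-M3 stood further from H2-K1, at 72.2% and 72.9%. Windows were taken from each gene's transcript with the most counts. No 100-base window of H2-K1 occurred in another gene, against 4.64% of H2-D1 windows, 2.84% of H2-Q10 windows and 17.7% of H2-Q7 windows. In 31-base windows the shares were 24%, 27.5%, 21.8% and 45.6%. The animals were hybrids while the reference holds the sequence of C57BL/6J, and what this does to the counts was not tested.

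The deposited posterior standard deviation (SD) of a count states how far the authors' read assignment could vary. It was above 5% of the posterior mean count in both libraries for 5 of 30 members with at least 10 counts, beside 5.80% of all such genes. These were H2-Q1 (15.8% and 12.3%), H2-Q6 (14.2% and 9.29%), H2-Q7 (9.83% and 6.02%), H2-DMb1 (5.52% and 7.30%) and H2-DMb2 (6.67% and 10.4%). H2-DMb1 and H2-DMb2 shared 13.7% and 13.5% of their 100-base windows, with each other. H2-Q10 had 5.11% in replicate 1 but 0.372% in replicate 2, and H2-K2 had 8.81% and 3.53%, so the low library of each call was the less certain one. H2-K1 stood at 0.0706% and 0.0994% and H2-D1 at 0.347% and 0.346%. The 4 tested class II chains, B2m and Cd74 had a posterior SD of 0.

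**Figure D4:**
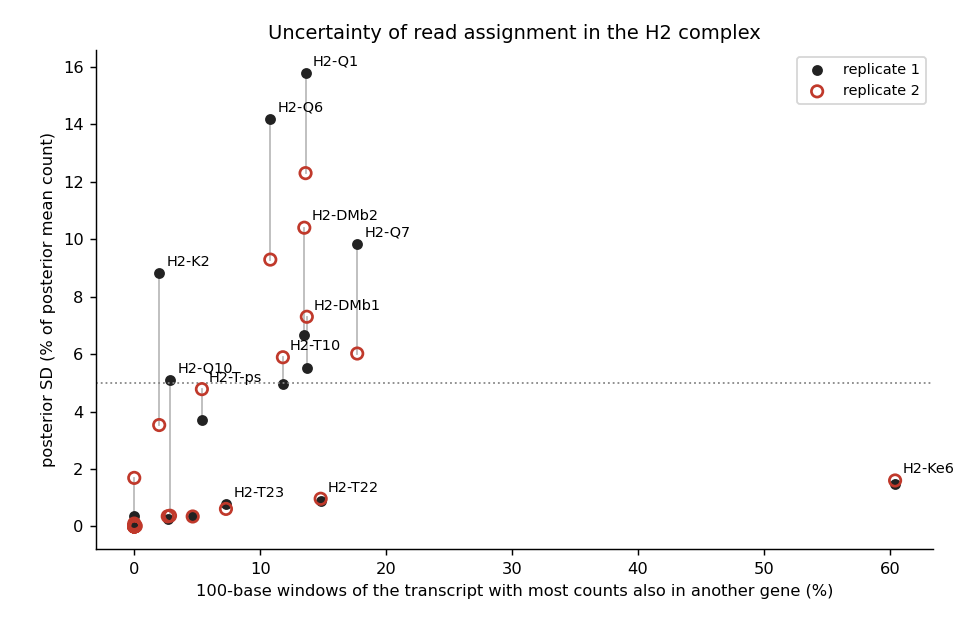
Posterior SD as a percent of the posterior mean count against the percent of 100-base windows that the gene's transcript with the most counts shares with other genes, for 30 members, with filled points for replicate 1, open circles for replicate 2 and a dotted line at 5%. The 5 genes above the line in both libraries shared from 10.8% to 17.7% of their windows, while H2-T22 at 14.8% and H2-Ke6 at 60.4% stayed low.

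The alignment-free table gave higher TPM for most messenger RNAs, by a median of 1.89-fold and 1.80-fold over detected protein-coding genes, and the comparison was centred on those medians (pseudocount of 0.1 TPM). Of 27 members at 1 TPM in either table, 1 was more than 2-fold higher in the alignment-free table in both libraries, beside 5.45% of all such genes, and 0 were lower, beside 4.05%. That gene was H2-Q5, a polymorphic pseudogene, with 1.29 and 1.81 alignment-free TPM and centred log2 differences of 1.15 and 1.73. It shared 41.7% of its 31-base windows with H2-Q7. The classical genes were close between tables, at -0.18 and -0.18 for H2-K1 and -0.01 and -0.08 for H2-D1. H2-Q10 stood at 0.58 in replicate 1, where it had 53.1 counts, and at -0.04 in replicate 2. Members at 1 TPM in the alignment-free table and under it in the gene table were H2-Q7, H2-Q5, H2-T10, H2-K2, H2-DMb1, H2-DMb2 and Nlrc5.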

How the data were processed

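Total RNA (300 ng with ERCC spike-ins, directional kit, per the labels' protocols) was sequenced from 2 samples of adrenal gland tissue. For each library the authors deposited a gene table and a transcript table from an alignment and an alignment-free transcript table, on mm10 and GENCODE M21, per the descriptions that came with the deposited files. The programs and their settings were not given in the sources used here. Both kinds of table hold estimated counts and TPM values deposited by the authors. The counts divide shared reads among genes, and the headers of the alignment-based tables call them expected counts. The posterior SD of each count was taken from the alignment-based gene table. The percent of a gene's TPM on each transcript was computed from the deposited TPM. TPM divides by transcript length, so a short transcript with few counts can carry much of a gene's TPM. For a gene's alignment-free value its transcripts were summed, which left 86 genes with no value.

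Counts were rounded, and 26248 rows that name no gene (3 and 2 counts) and the spike-ins (1.06% of counts in each library) were left out. edgeR 4.0.16 (R 4.3.3) gave TMM sizes and kept 18160 genes by its filter. Each gene's 2 counts were compared by an exact two-sided binomial test, adjusted by Benjamini-Hochberg over these genes. A call needed an adjusted p under 0.05 and a difference over 2-fold. Log2 ratios are replicate 2 over replicate 1 with a prior count of 0.5. No test between conditions exists with 1 group, and p-values measure counting error between these libraries. Before use the test was tried on data simulated with counting error alone, which cannot check it against variation between animals. DESeq2 1.42.0 gave other size factors as an alternative. Coding sequences were aligned with Biopython 1.88, from GENCODE M21 transcripts. The 15 lists covered class I loading, proteasome, class II processing, regulators, interferon response, class I receptors and relatives, and markers of 9 cell types, of which 1 gene is not reported here. Members and lists were chosen with earlier results of these data known. Named were members at 1 TPM in either table, those called in any comparison, the classical class I and class II genes, and up to 4 highest genes of a list.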

Additional observations from a re-analysis of the deposited data

How the results depend on the processing

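With 1 group of 2 libraries, levels rest on an SD from 2 values and the library comparison on counting error alone. The number of detected members ranged from 19 to 22 when either replicate was left out, and H2-Q10 was the member lost without replicate 2. It was 27 with alignment-free TPM, 28 with TPM rescaled over protein-coding genes, 27 at 0.5 TPM and 17 at 3 TPM, against 20. The 3 members called between the libraries stayed 3 with DESeq2 size factors, spike-in or total count scaling and no filter. They also stayed 3 with alignment-free counts and a library size without genes over 8-fold apart. With alignment-free counts H2-K2 lay only just past 2-fold, at a log2 ratio of 1.02 against 1.25. The number became 14 of 30 when any fold was allowed, beside 33.5% of all genes. Of 209 ratios of the 30 members under 7 alternatives, 205 kept their direction and none gained or lost a call, while 4 that were not called turned, all with alignment-free counts: Ciita to 0.35, H2-D1 to -0.04, H2-T10 to 0.17 and H2-DMb1, at 0.00 before, to -0.39. The adjusted threshold alone was crossed 5 times, by B2m and Tap1 with spike-in and total count scaling and by H2-Q7 with alignment-free counts. Spike-in and total count scaling moved the median of all genes by 0.030 and 0.031.

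Members of uncertain assignment numbered 1 at a limit of 10% (3.63% of all genes), 8 of 30 at 2% (8.45%), 0 of 13 where 100 counts were required (2.64%), and 6 to 7 without either replicate, against 5. Members apart between the tables numbered 9 of 27 without centring (31.8% of all genes), 3 at 1.5-fold (13.8%), 0 at 4-fold (7.09%), 0 with a pseudocount of 1 TPM (6.07%), 2 with 0.01 TPM (9.90%), and 1 without either replicate, against 1. Leaving out a replicate was not possible for the library comparison. No paired analysis was possible because there was 1 group.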

Other observations

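Interferon is the usual inducer of MHC genes. Of 30 genes of its receptors, signalling and response, 21 were detected and 26 could be tested. By the exact binomial test 1 was called, Iigp1, at 0.760 and 2.75 TPM from 64 and 234 counts, a 3.79-fold difference with an adjusted p of 5.94e-24. Igtp, another interferon-inducible GTPase, had 211 and 310 counts and a log2 ratio of 0.61 (adjusted p of 1.52e-05, exact test). Past the adjusted threshold lower in replicate 2 were Tyk2, at a log2 ratio of -0.38 (adjusted p of 7.17e-07, exact test), and Ifnar1, at -0.11 (0.0169). The list's median log2 ratio was 0.01. Over all genes tested 3.38% were called higher, and 15.9% and 17.6% passed the adjusted threshold higher and lower. Ifng and Ifnb1 had 0 counts in both libraries. The highest were the signalling genes Jak1 at 40.4 ± 4.07, Ifnar1 at 34.0 ± 1.51 and Ifnar2 at 24.4 ± 1.84 TPM, and the antiviral response gene Bst2 at 16.0 ± 0.438 TPM.

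Receptors of class I and its relatives outside the complex were also measured, 23 genes in all. The NK cell receptors Klra1, Klra3, Klra4, Klra7, Klra8 and Klra9 had 0 counts in both libraries, and Cd8a had 1 and 8. Klra2 had 16 and 13 counts and Klrd1 had 1 and 5. Pirb, also on this list, had 86.6 and 77.1 counts, and Lilrb4a had 61.4 and 50.9. The highest were relatives that use or resemble the class I fold or bind it: Fcgrt, the neonatal Fc receptor, at 36.7 ± 0.170 TPM, Cd1d1, which presents lipids, at 30.1 ± 5.42 TPM, Procr at 11.9 ± 1.75 TPM and Hfe, which takes part in iron sensing, at 10.8 ± 1.85 TPM. Cd1d1 had 1361 and 892 counts, a log2 ratio of -0.55 and an adjusted p of 1.11e-17 by the exact test. Over the list 1 gene passed the adjusted threshold higher, beside 15.9% of all genes tested, and 4 lower, beside 17.6%. The median log2 ratio was -0.20. The single gene called was Azgp1, a secreted class I relative, at 16 and 678 counts, or 0.490 and 19.6 TPM, a log2 ratio of 5.42. Per 100 Alb counts it had 0.327 and 0.506 counts. H2-Q10 and Azgp1, both secreted, were thus the genes of this fold with the largest library differences among those tested here.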
